A study of Mus musculus with 12 samples.

Results

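Clustered histone genes were described across 12 RNA-seq libraries of sorted mouse myeloid cells. A gene was included if its Ensembl identifier had a GENCODE mouse release 21 symbol starting with Hist1h, Hist2h, Hist3h or Hist4h. The rule used names only, and it found 59 of the 25904 genes in the deposited table; another 11 symbols of that form in the annotation were not analysed here. By class the 59 were 6 linker histone H1 genes, 13 H2A, 14 H2B, 11 H3 and 13 H4 genes, and 2 pseudogenes (Hist1h2al and Hist3h2bb-ps). The Hist1 genes lay on chromosome 13 (48 genes), the Hist2 genes on chromosome 3 (7 genes), the Hist3 genes on chromosome 11 (3 genes) and Hist4h4 on chromosome 6, all on build GRCm38.

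The study compared microglia, which are the macrophages native to brain and spinal cord, with bone marrow-derived macrophages that had replaced them, each with or without Tgfbr2, the type II receptor for TGF-beta. All cells came from C57BL/6 mice and all donors were Tgfbr2fl/fl; cells called WT had no Cre, and cells called KO were Cx3cr1CreER/+Tgfbr2fl/fl. Each of the 4 groups had 3 libraries, each from a pool of 1 to 5 mice. Microglia of the whole central nervous system were sorted once 18 to 22 days had passed since tamoxifen, given under the skin as 3 doses of 5 mg on successive days. For the macrophage groups, irradiated Cx3cr1CreER/+R26DTA/+ hosts received WT or KO marrow, the same tamoxifen course 6 weeks later removed host microglia, and the cells found in the central nervous system 18 to 22 days after that were sorted. The sort took live Ly6C-negative CD11b-positive cells, F4/80 low for WT and F4/80 high for KO, so gate and genotype changed together and cannot be told apart. The KO cells also carried the Cre knock-in allele of Cx3cr1, which the WT cells lacked, and both macrophage groups came from irradiated hosts in which microglia that escaped the toxin could remain. Ages and sexes were not in the labels.

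Histones package DNA: H2A, H2B, H3 and H4 form the nucleosome core, and H1 binds the linker DNA between cores. Most clustered histone genes are switched on when a cell copies its DNA, and their transcripts end in a stem-loop instead of a poly(A) tail, so libraries made from poly(A) RNA largely miss them. The stem-loop is bound by SLBP and cut by a machinery that includes the U7 small nuclear RNA, and the transcripts are destroyed when replication ends. Some clustered genes are also known to give longer, polyadenylated transcripts in cells that have stopped dividing. The libraries here were made from total RNA with a stranded kit for very small inputs, which does not select for poly(A).

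The stem-loop was looked for in the annotated transcripts, because it is the feature that sets these genes apart from others in a total RNA library. The histone stem-loop motif (16 bases, with some positions in the stem and the loop left free) was searched on the transcript strand in the 150 bases after the stop codon, in genes whose annotated transcript goes on for at least 60 bases. It was present in 38 of 40 such histone genes and in 12 of 20495 other protein-coding genes, which included H2afx and clustered histone genes not analysed here; the share over all protein-coding genes was 0.243%. Hist1h2bc and Hist2h2be were without a match, which says only that these letters are not in that window. The annotated transcripts of Hist1h1b and Hist1h2ak stop at the stop codon and that of Hist1h1a 48 bases after it, so they could not be searched. The stem-loops of the genes on which the results below turn are printed with 7 bases on either side, in DNA letters of the transcript strand, the motif in capitals, from GENCODE release 21 transcripts on GRCm38; each lies in the annotated 3' UTR.
Hist1h1c (chr13:23739505-23739534, plus strand): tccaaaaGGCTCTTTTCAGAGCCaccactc
Hist1h1e (chr13:23621775-23621804, minus strand): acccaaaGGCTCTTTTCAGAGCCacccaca
Hist3h2a (chr11:58955165-58955194, plus strand): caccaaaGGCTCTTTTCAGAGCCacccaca
Hist2h2ac (chr3:96220411-96220440, minus strand): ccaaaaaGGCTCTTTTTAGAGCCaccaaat
Hist1h4d (chr13:23581943-23581972, plus strand): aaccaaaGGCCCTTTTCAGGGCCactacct
Hist2h4 (chr3:96262932-96262961, minus strand): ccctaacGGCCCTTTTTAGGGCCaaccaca
Hist4h4 (chr6:136803991-136804020, minus strand): ccacaaaGGCCCTTTTCAGGGCCcacaaag
The 16 capital letters were the same in Hist1h1c, Hist1h1e and Hist3h2a, and the same in Hist1h4d and Hist4h4. In 15 of the 59 genes the annotated transcript ran on past the stem-loop and held a poly(A) signal (AATAAA or ATTAAA) there; these included Hist1h1c, Hist3h2a, Hist1h4d, Hist2h4 and Hist4h4.

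Promoters were examined because members of a class moved together in some comparisons below and apart in others. RefSeq promoters (GRCm38.p6, 250 bases before to 50 after the start) were matched for 52 of the 59 genes, giving 53 promoters, and all 32851 promoters in the same table served as background. On either strand, CCAAT was in 83.0% of the histone promoters and 37.4% of all promoters. TATAAA was in 62.3% against 13.6%, and the octamer ATTTGCAT in 22.6% against 1.74%. The octamer was in 6 of 13 H2A and 6 of 13 H2B promoters and in no H1, H3 or H4 promoter of those matched. AAACACA, part of the H1 box, was in 5 of 6 H1 promoters and in 7.18% of all promoters. CCAAT was in every matched H1, H2A, H2B and H3 promoter but in 3 of 12 H4 promoters. In 7 H2A and H2B pairs the 2 genes start back to back, and their 300-base promoter windows share 252 to 279 bases. The 150 bases before the start are printed for 4 H1 genes that differ in the comparisons below, with the CCAAT, TATA and H1-box letters above (on either strand) in capitals.
Hist1h1a (chr13:23763518-23763667, plus strand): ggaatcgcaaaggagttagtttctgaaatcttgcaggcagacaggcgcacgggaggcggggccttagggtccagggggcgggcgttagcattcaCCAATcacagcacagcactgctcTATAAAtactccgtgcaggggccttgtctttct
Hist1h1b (chr13:21780626-21780775, minus strand): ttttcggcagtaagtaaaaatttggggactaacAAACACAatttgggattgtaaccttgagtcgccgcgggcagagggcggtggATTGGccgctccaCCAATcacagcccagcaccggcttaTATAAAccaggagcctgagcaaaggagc
Hist1h1c (chr13:23738657-23738806, plus strand): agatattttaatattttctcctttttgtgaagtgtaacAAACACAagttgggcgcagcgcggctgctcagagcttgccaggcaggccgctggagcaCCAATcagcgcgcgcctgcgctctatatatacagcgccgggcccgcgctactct
Hist1h1e (chr13:23622559-23622708, minus strand): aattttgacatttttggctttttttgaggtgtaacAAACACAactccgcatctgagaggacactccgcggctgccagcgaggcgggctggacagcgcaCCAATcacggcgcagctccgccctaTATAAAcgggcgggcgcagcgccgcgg
Of these 4 stretches, that of Hist1h1a had no AAACACA and that of Hist1h1c no TATAAA. Those of Hist1h1b and Hist1h1e hold all of these motifs. The 2 genes moved in opposite directions in KO microglia, and the part of the motifs in these changes was not tested.

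Values below are normalized counts, that is, reads divided by the authors' size factor for the library. Depth ran from 2615404 to 6364994 gene-assigned reads per library, so that a single (1) read equals between 0.718 and 1.6 normalized counts. Tgfbr2 itself read 2495 to 3172 normalized counts in WT and 2078 to 2256 in KO microglia, and 2997 to 3486 in WT and 2068 to 2469 in KO macrophages. It was thus lower in every KO library than in any WT library of its cell origin, though far from absent. Summed over 9 microglia markers, WT microglia held 64984 to 85139.6 and KO microglia 5291 to 5829. WT macrophages held 19268 to 20219 and KO macrophages 5903 to 6754, so these markers were lower with KO in both origins. Over 8 macrophage markers, WT microglia held 29474 to 34070 and the other 3 groups 132193 to 169412. Markers of several other cell types were present and moved with genotype: 8 neuron markers summed to 15.9 to 21.9 in WT and 103 to 137 in KO microglia, and to 30.0 to 55.9 in WT and 66.8 to 132.9 in KO macrophages. For 6 astrocyte markers the sums were 46.7 to 112 and 197 to 273 in microglia, and 41.9 to 66.1 and 139 to 178 in macrophages. For 4 endothelial markers the sums were 190.4 to 300.5 and 97.2 to 126 in microglia, and 85.2 to 91.0 and 110.4 to 197 in macrophages. Most of the change in these sums came from Pecam1. Its group means were 178.5 and 27.8 in WT and KO microglia and 13.3 and 103.0 in WT and KO macrophages. Kdr and Cdh5 were not called in either comparison. Of the 4 endothelial genes tested, 0 were called higher and 1 lower in KO microglia. In KO macrophages 1 was called higher and 1 lower. Over all genes, 42.5% and 31.4% were called in these comparisons. For 5 B cell markers the sums were 40.4 to 49.4 and 54.1 to 62.7 in microglia, and 9.88 to 26.7 and 28.01 to 57.6 in macrophages. For 4 monocyte markers they were 21.7 to 46.4 and 114 to 146 in microglia, and 156 to 209 and 160.1 to 339.7 in macrophages. Of the neuron list, Syt1 was at 0 in all 3 WT microglia libraries. Of the T and NK cell list, Nkg7 was at 0 in WT microglia, KO microglia and WT macrophages, and the list summed to 14.4 at most. Sums of the erythroid and of the neutrophil markers overlapped between WT and KO in both origins. Those of the oligodendrocyte markers were higher in every KO microglia library but overlapped in macrophages. The part of these other cell types in the histone results was not tested. In such bulk samples, fewer cells of a kind and less RNA per cell cannot be told apart.

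Histone transcripts were a small part of every library, 0.00896% to 0.0334% of the reads in genes. WT macrophages had the lowest levels, and KO macrophages held more than WT macrophages in all 3 libraries. Summed over the 59 genes, WT microglia held 953, 792 and 738 normalized counts and KO microglia 1062, 805 and 959.8. WT macrophages held 458, 474 and 396, and KO macrophages 1399, 901 and 725. The libraries of WT and KO microglia overlapped, with a ratio of group means of 1.14. KO macrophages were above WT macrophages in every library, at a ratio of 2.28, and WT macrophages were below WT microglia in every library, at a ratio of 0.535. KO macrophages and KO microglia overlapped, at a ratio of 1.07. KO macrophage replicate 1, the highest of the 12, was also the library with the fewest reads (2615404); without it the KO to WT ratio in macrophages was 1.84. Its histone share of 0.0334% had an exact (Clopper-Pearson) 95% interval of 0.0312% to 0.0357%, against 0.0187% to 0.0211% in replicate 2. These intervals take each read as a separate molecule. PCR copies were not marked, so the intervals can be too narrow, and the reason for its distance was not tested.

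By class, the pattern of KO to WT ratios differed between microglia and macrophages. In macrophages the KO to WT ratio of the class sums was 2.88 for H1, 2.41 for H2A, 1.502 for H2B, 4.03 for H3 and 1.94 for H4. Libraries did not overlap for H1, H2A, H3 and H4, and they overlapped for H2B. Without KO macrophage replicate 1 the ratios were 2.46 for H1, 1.95 for H2A, 1.04 for H2B, 3.13 for H3 and 1.56 for H4. The H3 ratio rests on 41 reads in all WT macrophage libraries together. In microglia the ratios were 0.898 for H1, 1.94 for H2A, 1.09 for H2B, 1.53 for H3 and 1.21 for H4. H2A was the class with the widest separation there: 94.3, 90.2 and 108 normalized counts in WT microglia against 228, 155 and 185 in KO microglia. H4 libraries were also apart, at 123 to 153 in WT and 163 to 174 in KO microglia, while the H1, H2B and H3 libraries overlapped. These class sums are descriptions, with no test.

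**Figure D1:**
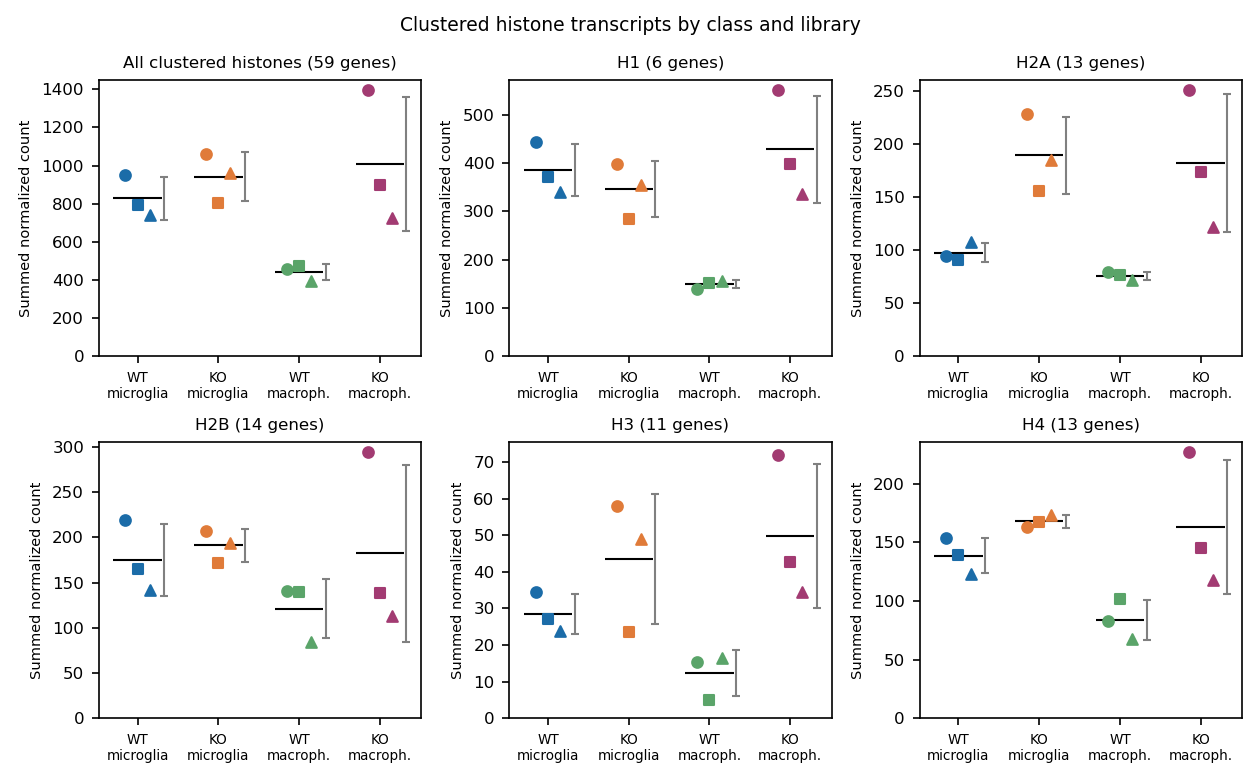
Summed normalized counts (linear axis from 0) of all 59 clustered histone genes and of each class in the 12 libraries; each symbol is 1 library, black bars are group means and grey bars 1 SD (n = 3). WT macrophages are lowest in the total, at 396 to 474, and the circle of KO macrophage replicate 1 is highest, at 1399.

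Levels of single genes differed widely. A gene was tested when 3 or more libraries gave it 10 or more normalized counts, which held for 21 of the 59; none of the 2 pseudogenes and 1 of 11 H3 genes did, against 5 of 6 H1, 3 of 13 H2A, 6 of 14 H2B and 6 of 13 H4 genes. Per kilobase of annotated exon, the mean level over 12 libraries ran from 4.54 (Hist1h1d) to 80.0 normalized counts (Hist1h1c) among the tested genes. Hist1h1c, Hist1h1e at 72.4 and Hist2h2ac at 64.8 stood at the top of that scale, and Hist1h2bg followed at 40.5. In WT microglia, Hist1h1c (103 per kilobase) and Hist1h1e (95.5) were followed by Hist2h2ac (53.8). Hist1h1c and Hist1h1e encode H1 subtypes found in most somatic cells. Annotated length weighs on this order, since the Hist1h1d model spans 7425 bases of exon.

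Of the 21 tested histone genes, 4 were called higher and 1 lower in KO than in WT microglia. Tests were made with limma across all 12519 genes that passed the filter, with Benjamini-Hochberg adjusted p under 0.05 as the threshold. Over all genes tested, 21.9% were called higher, 20.6% lower and 42.5% in either direction, so the share of histone genes called was below the background. The median log2 change of the 21 genes was 0.42, against -0.01 for all genes tested. Libraries did not overlap for 5 of the 21 upward and 1 downward. Among all genes tested, that held for 27.4% upward and 27.8% downward, so non-overlap was common. The 4 genes that rose were Hist1h1b, Hist1h2ak, Hist2h4 and Hist3h2a, and the gene that fell was Hist1h1e. Hist1h1b and Hist1h2ak reached 10 normalized counts mostly in KO libraries, so the filter favoured their rise.

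Hist1h1b (ENSMUSG00000058773, chr13:21779883-21780625, minus strand) encodes an H1 subtype typical of dividing cells. It read 7.05, 2.58 and 3.10 normalized counts in WT against 35.4, 11.8 and 31.3 in KO microglia, with no overlap. Its log2 change was 2.33 ± 0.55 (SE; limma adjusted p = 0.00298). Hist3h2a (ENSMUSG00000078851, chr11:58954685-58956830, plus strand) encodes a core histone H2A outside the large cluster. It read 37.9, 46.4 and 42.4 in WT and 94.3, 81.6 and 84.4 in KO microglia, and every KO library was above every WT library. The log2 change was 1.02 ± 0.25 (limma adjusted p = 0.00344).

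Hist1h2ak, another H2A gene, read 2.64, 5.15 and 9.31 normalized counts in WT and 22.6, 14.7 and 15.3 in KO microglia (log2 change 1.57 ± 0.45, limma adjusted p = 0.0109). Hist2h4, an H4 gene of the chromosome 3 cluster, read 20.3, 15.5 and 12.4 in WT and 34.4, 35.4 and 42.6 in KO microglia (log2 change 1.19 ± 0.39, limma adjusted p = 0.0237). Neither pair of groups overlapped. The call of Hist1h2ak was lost without WT or KO microglia replicate 1 (adjusted p 0.00435 to 0.0573 over its alternatives). That of Hist2h4 was lost without WT or KO microglia replicate 2 or 3 (0.00308 to 0.0809).

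Hist1h1e (ENSMUSG00000051627, chr13:23620629-23622558, minus strand) went the other way: 223, 169 and 161 normalized counts in WT and 142, 113 and 125 in KO microglia, with every KO library below every WT library. The log2 change was -0.53 ± 0.17 (limma adjusted p = 0.0197), and over its alternatives the adjusted p ran from 0.00435 to 0.133. The call was lost with upper-quartile scaling (log2 change -0.32), with Ddx3y as a covariate (-0.45), and without WT replicate 1, KO replicate 2 or KO replicate 3. Ddx3y, a Y-linked gene, was high in all 3 KO microglia libraries and in 1 WT microglia library. Its level and genotype thus partly go together in every comparison of KO with WT microglia, class sums included. With it as a covariate, 5 of 21 histone genes were called higher and 0 lower there, against 36.7% of all genes in either direction. Hist1h1c (ENSMUSG00000036181, chr13:23738808-23740367, plus strand) read 163, 170.1 and 147 in WT and 151, 125 and 139.9 in KO microglia, which overlap (log2 change -0.21 ± 0.16, limma adjusted p = 0.337).

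In KO against WT macrophages, 11 of the 21 tested histone genes were called higher and none lower. Over all genes tested in this comparison, 16.0% were called higher, 15.4% lower and 31.4% in either direction, so histone genes were called higher more often than the background, which is a count and not a test. The median log2 change was 0.91, against 0.00 for all genes. Libraries did not overlap for 12 of the 21 upward and 0 downward, against 22.4% and 22.8% of all genes tested. All 5 tested H1 genes rose, as did 2 of 3 H2A genes (Hist2h2ac and Hist3h2a), 2 of 6 H2B genes (Hist1h2bc and Hist1h2bg), the single tested H3 gene (Hist2h3b) and 1 of 6 H4 genes (Hist1h4d). Hist2h3b reached 10 normalized counts in 3 libraries, all of them KO. It thus passed the filter through KO libraries alone, and its rise gives no independent support for H3. Hist1h2bb, not called but among the 12 without overlap, reached 10 normalized counts in 4 libraries, also all KO. The filter thus favoured its place in that count. Of the 21 genes, 20 had a positive log2 change; Hist1h2be, with -0.37 ± 0.34, was the exception. Without KO macrophage replicate 1 the count was 7, the losses being Hist1h2bc, Hist1h2bg, Hist2h2ac and Hist2h3b. This count was not set against the share of all genes called without that library. Mitosis genes were also highest in that library, as given further on, and the part of cycling in its histone values was not tested.

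Among H1 genes, Hist1h1c read 51.9, 52.1 and 56.0 normalized counts in WT and 181, 150.1 and 111 in KO macrophages (log2 change 1.42 ± 0.16, limma adjusted p = 8.72e-06). Hist1h1e read 63.7, 72.4 and 69.1 in WT and 227, 163 and 148.7 in KO macrophages (log2 change 1.36 ± 0.17, limma adjusted p = 2.22e-05). For both genes all KO libraries were well above the tight WT values.

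The other 3 tested H1 genes also rose, from lower counts. Hist1h1b read 2.73, 11.4 and 4.94 in WT and 59.2, 22.7 and 22.98 in KO macrophages (log2 change 2.32 ± 0.55, limma adjusted p = 0.00507). Hist1h1a read 1.82, 3.81 and 4.12 in WT and 33.6, 13.96 and 12.9 in KO macrophages (2.23 ± 0.60, limma adjusted p = 0.0103). Hist1h1d read 19.1, 11.4 and 22.2 in WT and 48.0, 48.9 and 41.7 in KO macrophages (1.39 ± 0.30, limma adjusted p = 0.00266). None of these 3 genes had overlapping groups. Hist1h1a and Hist1h1b reached 10 normalized counts mostly in KO libraries, so the filter favoured their rise.

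Among core histone genes, Hist3h2a read 35.5, 30.5 and 30.5 normalized counts in WT and 115, 75.9 and 48.8 in KO macrophages (log2 change 1.21 ± 0.25, limma adjusted p = 0.00178). Hist1h4d, an H4 gene, read 26.4, 24.1 and 18.1 in WT and 46.4, 42.8 and 38.1 in KO macrophages (0.87 ± 0.22, limma adjusted p = 0.0071). Both were higher in every KO library. Hist2h2ac, an H2A gene, read 26.4, 24.1 and 23.9 in WT and 49.6, 48.9 and 32.3 in KO macrophages (0.77 ± 0.26, limma adjusted p = 0.0344); its adjusted p passed 0.05 in 10 of its alternatives, reaching 0.105.

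The calls of the H2B and H3 genes leaned on few libraries. Hist1h2bc read 19.1, 13.98 and 15.6 in WT and 57.6, 22.7 and 22.98 in KO macrophages (log2 change 0.91 ± 0.33, limma adjusted p = 0.0452), and the call was lost in 15 of 23 alternatives, with adjusted p from 0.0247 to 0.201. Hist1h2bg read 17.3, 13.98 and 9.88 in WT and 51.2, 28.8 and 17.2 in KO macrophages, which overlap (1.08 ± 0.34, limma adjusted p = 0.0248). Hist2h3b read 1.82, 1.27 and 8.23 in WT and 27.2, 11.3 and 7.90 in KO macrophages, which also overlap (1.90 ± 0.57, limma adjusted p = 0.0188). In each of these 3 genes KO macrophage replicate 1 was the highest value.

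**Figure D2:**
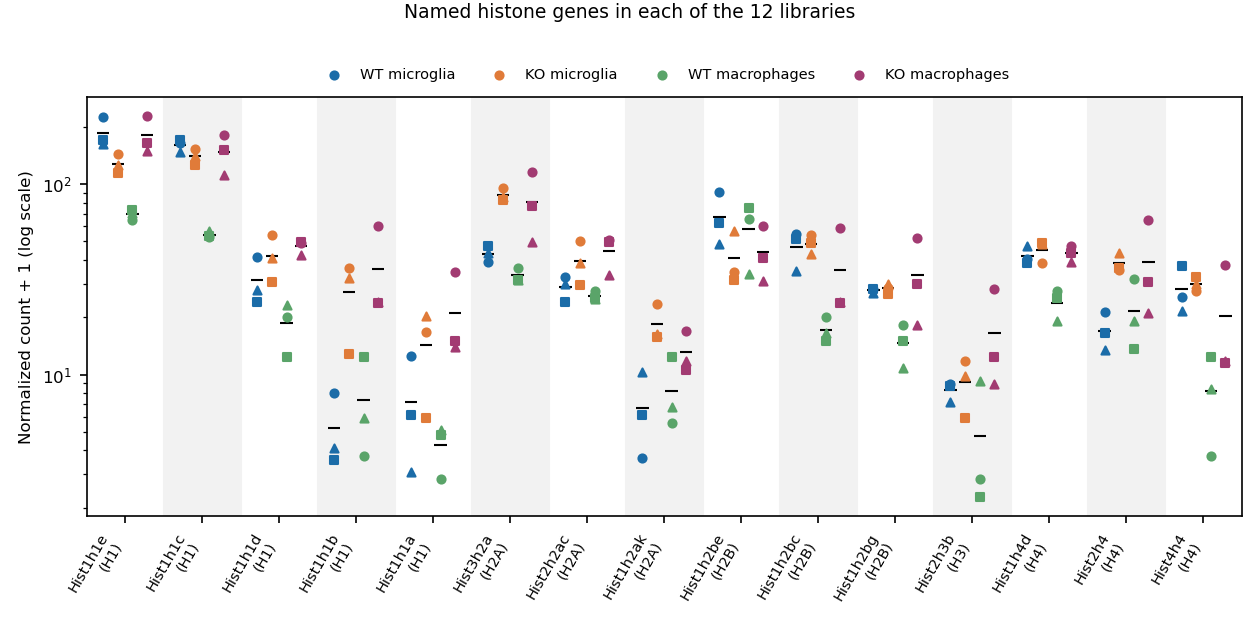
Normalized count + 1 (log scale) of 15 histone genes in each library, ordered by class and then by mean level; symbols are libraries (circle, square and triangle for replicates 1, 2 and 3) and black bars are group means of the counts. Hist1h1c and Hist1h1e show WT macrophages alone at low levels, 51.9 to 72.4, while Hist1h1b is low in both WT groups.

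The effect of the deletion differed between microglia and macrophages for 2 of the 21 genes, both H1. Over all genes, 13.0% were called higher and 25.8% in either direction for this difference of effects. For Hist1h1c the macrophage effect exceeded the microglia effect by 1.63 ± 0.23 on the log2 scale (limma adjusted p = 8.8e-05), and for Hist1h1e by 1.89 ± 0.24 (limma adjusted p = 3.28e-05). Summed, the pair held 386, 339 and 308 normalized counts in WT microglia and 294, 238 and 264 after deletion. In macrophages it held 116, 125 and 125 when WT and 408, 313 and 259 when KO. The pair therefore fell from a share of 0.405 to 0.428 of all histone counts in WT microglia to 0.276 to 0.295 in KO microglia, with no overlap. The other 57 genes had KO to WT ratios of 1.40 in microglia, where the lowest KO library (567.3) lay just above the highest WT library (566.7), and 2.12 in macrophages. The pair was set apart after its values were seen, and these sums carry no test. The endothelial list had its sums ordered in the same way, with KO to WT ratios of 0.453 in microglia and 1.81 in macrophages. That order came mostly from Pecam1. In KO macrophages 1 of the 4 tested genes of the list was called higher and 1 lower. The part of the list in the result was not tested. Hist1h1b was higher in KO cells of both origins, by nearly the same log2 change. The difference of its changes was -0.01 ± 0.78 (limma adjusted p = 0.993), an SE too wide to show that the changes were equal.

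WT macrophages had lower levels than WT microglia for 6 of the 21 genes and higher levels for none. Over all genes, 20.2% were called lower, 19.2% higher and 39.4% in either direction. The median log2 difference was -0.59, against 0.00 for all genes. Libraries did not overlap for 8 of the 21 downward and 0 upward, against 27.6% and 26.3% of all genes tested. The 6 were Hist1h1c (-1.57 ± 0.16, limma adjusted p = 1.67e-06), Hist1h1e (-1.40 ± 0.17, limma adjusted p = 8.69e-06), Hist4h4, Hist1h2bc, Hist1h2bg and Hist1h4d. These WT microglia also entered the comparison with KO microglia, and the WT macrophages that with KO macrophages, so the comparisons are not independent.

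Hist4h4, the single gene of its cluster, read 24.7, 36.1 and 20.7 normalized counts in WT microglia and 2.73, 11.4 and 7.41 in WT macrophages (log2 difference -1.91 ± 0.49, limma adjusted p = 0.00592). In KO microglia it read 26.5, 31.5 and 28.9, and in KO macrophages 36.8, 10.5 and 10.8, so replicate 1 lay apart from the others. Hist1h2bc read 53.8, 50.2 and 34.2 in WT microglia against 19.1, 13.98 and 15.6 in WT macrophages (-1.43 ± 0.33, limma adjusted p = 0.0026). Hist1h4d read 39.7, 37.4 and 46.6 against 26.4, 24.1 and 18.1 (-0.83 ± 0.22, limma adjusted p = 0.00724). WT groups did not overlap for any of these 3 genes. Hist1h2bg, at 27.3, 27.1 and 25.9 against 17.3, 13.98 and 9.88, had a log2 difference of -0.95 ± 0.34 (limma adjusted p = 0.0381) and lost its call in 11 of 22 alternatives, with adjusted p from 0.00953 to 0.142. Between the WT groups, the genes that rose in KO microglia had log2 differences of 0.41 ± 0.55 for Hist1h1b, 0.34 ± 0.45 for Hist1h2ak, 0.28 ± 0.39 for Hist2h4 and -0.38 ± 0.25 for Hist3h2a. None was called, which does not show that levels were equal, and Hist3h2a was lower in every WT macrophage library than in any WT microglia library.

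KO macrophages and KO microglia differed for 0 of the 21 genes by limma at an adjusted p under 0.05, with 1 gene at an unadjusted p under 0.05 and 0 calls with voom weights. Over all genes 5.45% were called higher, 5.05% lower and 10.5% in either direction. The gene nearest to the threshold was Hist1h1e (log2 difference 0.48 ± 0.17, limma adjusted p = 0.0904). Without KO macrophage replicate 1, Hist1h2bc (-1.02) and Hist4h4 (-1.36) were called lower in macrophages, and without KO macrophage replicate 3, Hist1h1e (0.61) was called higher.

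**Figure D3:**
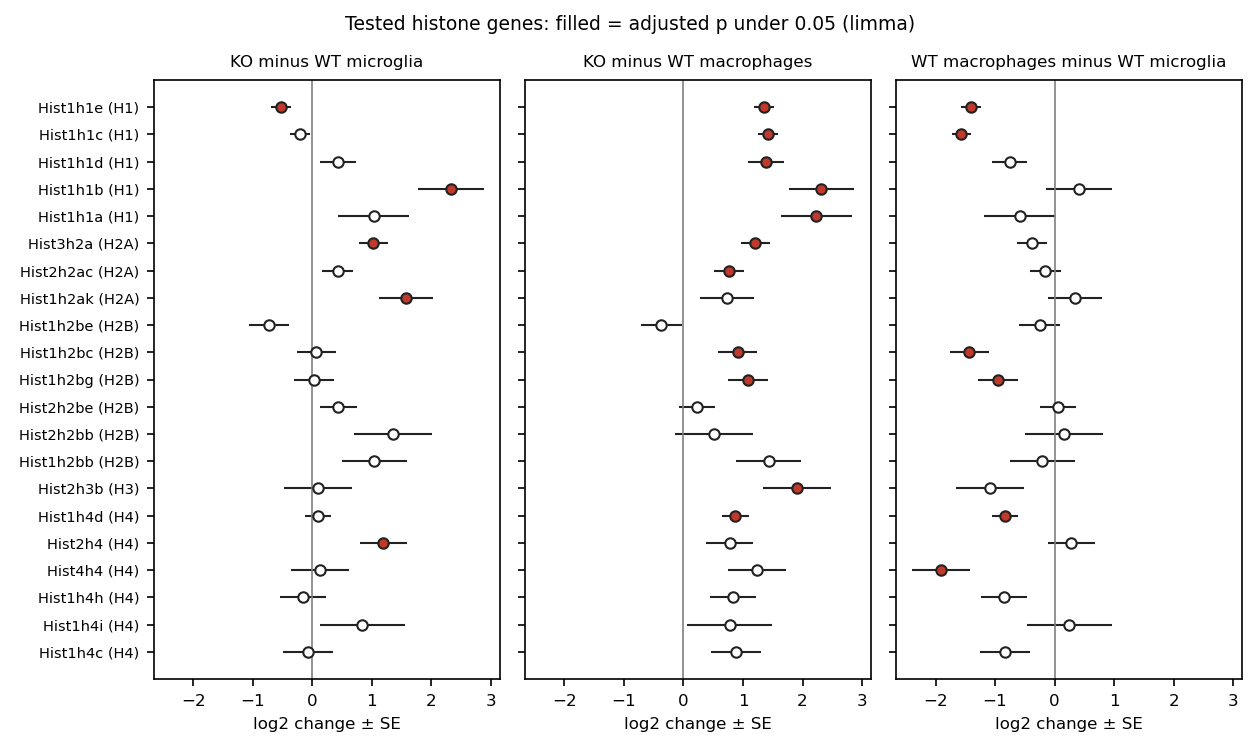
Log2 change with its SE (limma) of the 21 tested histone genes in KO against WT microglia, KO against WT macrophages, and WT macrophages against WT microglia; filled points passed an adjusted p of 0.05. Filled points number 5, 11 and 6; the Hist1h1e point lies left of 0 in the first panel and right of 0 in the second.

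Histone genes were also summed by the length of the annotated transcript after the stop codon, as a description, since no test compared the classes. At least 200 bases after the stop codon counted as long, a limit set after the values were seen. There were 21 genes with a long and 36 with a short 3' end, of which 13 and 8 were tested. In KO microglia 2 of 13 long and 2 of 8 short genes were called higher and 1 long gene lower. In KO macrophages 7 of 13 and 4 of 8 were called higher. The shares of all genes called higher were 21.9% in KO microglia and 16.0% in KO macrophages. At the limit lay Hist1h2bg with 200 bases and Hist1h2ae with 199, the latter at 0 to 5.89 normalized counts. Genes with a short 3' end summed to 169, 109.5 and 112 normalized counts in WT against 315, 173 and 248 in KO microglia. In macrophages they summed to 91.9, 111 and 83.9 in WT and 426, 212 and 178 in KO. KO libraries were above WT libraries in both cell origins, at ratios of 1.88 and 2.85.

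Genes with a long 3' end summed to 777, 683 and 625 in WT and 739, 629 and 709 in KO microglia, which overlap (ratio 0.996). In macrophages they summed to 366, 363 and 312 in WT and 972, 687 and 547 in KO, with no overlap (ratio 2.12). Leaving out Hist1h1c and Hist1h1e, the ratios for long genes were 1.22 in microglia and 1.81 in macrophages. Long genes made up 69.5% to 86.2% of all histone counts in a library. Which transcript end the reads came from is not in a table of counts per gene.

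The 38 genes below the filter were summed, since single values were mostly a few reads. They gave 87.2, 61.8 and 69.3 normalized counts in WT and 179, 88.5 and 134 in KO microglia, a ratio of 1.84. In macrophages they gave 41.0, 30.5 and 35.4 in WT and 197, 104 and 88.3 in KO, a ratio of 3.64. KO libraries were above WT libraries in both origins, by little in KO microglia replicate 2. These sums include 10 H3 and 10 H2A genes. With the filter lowered to 1 normalized count in 3 libraries, 53 histone genes were tested and 9 were called in microglia, against 30.0% of all genes at that filter, the 4 added being Hist1h2af, Hist1h2ai, Hist1h2bk and Hist3h2ba, all higher. In macrophages 14 of the 53 were called, all higher, against 20.3% of all genes called in either direction. Hist1h2af read 0.881, 0 and 1.03 in WT and 10.8, 2.95 and 9.65 in KO microglia, and 2.73, 0 and 1.65 in WT against 20.8, 9.60 and 7.18 in KO macrophages. Hist1h1t, the testis H1 gene, was at 0 to 3.20 in all libraries.

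Genes that act with histones in the cell cycle were set beside these values. Of 35 tested DNA replication genes (such as Dnmt1, Pola1 and Mcm6), 25 rose and none fell in KO microglia and 20 rose and none fell in KO macrophages, with median log2 changes of 0.99 and 0.67. Of 27 tested mitosis genes (such as Mki67 and Smc4), 25 rose in KO microglia and 24 in KO macrophages, with medians of 2.11 and 1.81 and none lower. Among all genes tested, 21.9% were called higher in KO microglia and 16.0% in KO macrophages. Replication genes summed to 1594 to 1778 in WT and 3036 to 3455 in KO microglia, and to 1949.8 to 1989 in WT and 2707 to 3389 in KO macrophages. Mitosis genes summed to 531 to 758 and 2385 to 3659 in microglia, and to 982 to 1230.2 and 2791 to 5261 in macrophages, the highest again in KO macrophage replicate 1.

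Histone counts did not keep a fixed proportion to replication genes. The histone sum divided by the replication sum was 0.536, 0.483 and 0.463 in WT and 0.316, 0.265 and 0.278 in KO microglia, lower in every KO library. In macrophages it was 0.235, 0.238 and 0.202 in WT and 0.413, 0.306 and 0.268 in KO, higher in every KO library. Without Hist1h1c and Hist1h1e it was 0.270 to 0.319 in WT and 0.187 to 0.228 in KO microglia, still apart. On that measure WT macrophages (0.138 to 0.176) and KO macrophages (0.172 to 0.292) overlapped. These ratios are descriptions of sums and were given no test.

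Genes of the machinery that processes the stem-loop moved in both directions. Of 27 tested genes, 4 rose and 7 fell in KO microglia, and 2 rose and 1 fell in KO macrophages, with median log2 changes of -0.13 and 0.01. Over all genes, 42.5% and 31.4% were called in these comparisons. Ncbp3, a cap-binding protein gene singled out after its values were seen, fell in both, by 1.17 ± 0.10 on the log2 scale in microglia (limma adjusted p = 1.04e-07) and by 0.44 ± 0.10 in macrophages (limma adjusted p = 0.0031). Slbp, whose product binds the stem-loop, had log2 changes of -0.25 ± 0.16 in microglia (limma adjusted p = 0.24) and 0.18 ± 0.16 in macrophages (limma adjusted p = 0.42). Npat, the coactivator of clustered histone genes, had -0.18 ± 0.12 (limma adjusted p = 0.25) and 0.06 ± 0.12 (limma adjusted p = 0.71). Tut7 and Srrt rose and Upf1 and Cpsf3 fell in KO microglia.

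Histone genes outside the clusters are mostly expressed independently of replication, though H2afx carries the stem-loop motif. Of 9 tested, 3 rose and none fell in KO microglia, and 5 rose and 1 (H2afy) fell in KO macrophages; H3f3b and Cenpa rose in both. Of 21 tested histone chaperone and acetylation genes, 11 rose and 1 (Rbbp4) fell in KO microglia, and 6 rose and 1 (Atrx) fell in KO macrophages. Of 9 tested cell cycle inhibitors, 6 rose in KO microglia and 4 in KO macrophages, and none fell. Beside these counts, 21.9% of all genes were called higher and 20.6% lower in KO microglia. In KO macrophages the shares were 16.0% and 15.4%. The lists are small, and their counts were not tested against these shares.

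**Figure D4:**
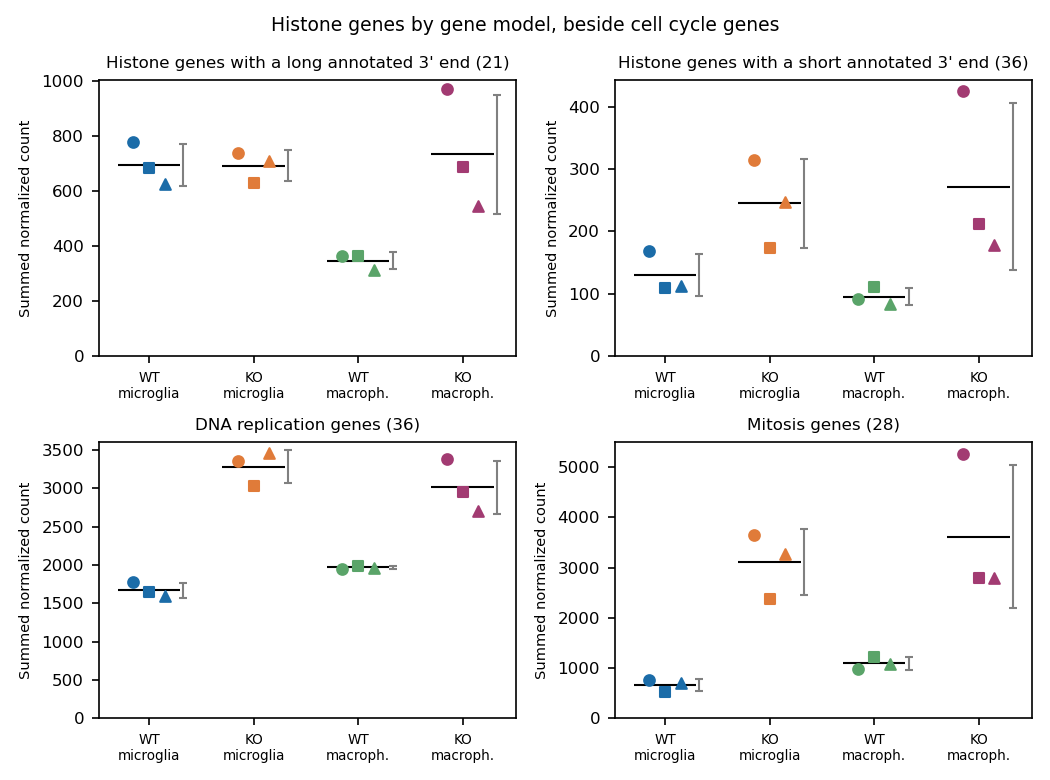
Summed normalized counts (linear axes from 0) per library of histone genes with a long or a short annotated 3' end, of 36 DNA replication genes and of 28 mitosis genes; symbols are libraries, black bars group means and grey bars 1 SD (n = 3). Genes with a long 3' end overlap between WT and KO microglia (625 to 777 and 629 to 739), while the other 3 sums are higher in every KO library than in the WT libraries of the same origin.

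Sequence sharing limits what single genes can show. Of the 59 genes, 55 had at least 1 stretch of 50 transcript bases that occurs in another gene, and 26 shared over 50% of them, 3 tested and 23 untested. The median share was 28.9% among tested and 59.9% among untested genes. Among the genes named above, Hist1h2ak shared 52.3%, Hist2h3b 79.7% and Hist1h2bg 49.7%, against 0.00% for Hist1h1a and Hist1h1b, 1.01% for Hist2h4 and 8.54% for Hist1h1c. Hist1h1e shared 32.0%, most of all with Hist1h2be, and Hist3h2a 31.5%, most of all with Trim17; each pair overlaps on the same strand. How the authors counted such reads, and whether strand was used, is not given in the sources used here, so values of these genes are uncertain. Hist1h2be read 89.9, 61.8 and 47.6 normalized counts in WT and 33.4, 30.5 and 55.5 in KO microglia (log2 change -0.73 ± 0.34, limma adjusted p = 0.105), and it overlaps Hist1h1e, which fell in the same comparison.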

How the data were processed

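The deposited table held log2 values made by the authors; raising 2 to each value and subtracting 1 returned whole reads, after division by a constant of the library, in 100% of 310848 cells to within 0.01 reads, so they are log2(count divided by size factor + 1). The tools STAR, CASAVA and bcl2fastq and the build GRCm38 are named per the submitters' processing notes; versions, counter and strand setting were not given there. Of 25904 identifiers, 25730 had a GENCODE release 21 symbol. Genes reaching 10 normalized counts in 3 or more of 12 libraries were tested (12519; 13385 were not) with limma 3.58.1 in R 4.3.3 (lmFit, eBayes with trend) on the deposited log2 values (pseudocount 1, which understates changes of low genes), with 1 mean per group, 8 residual degrees of freedom and Benjamini-Hochberg adjustment over all genes tested at 0.05. Sequences and sums used Python 3.11.15, pandas 2.3.3 and matplotlib 3.10.9. The pipeline was tested on simulated data.

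Members and lists were chosen with earlier results of these data known. Genes named with values were the 3 highest tested members of each class, the 4 largest called rises and falls of each comparison, and called members against the majority direction; Hist1h1t, Hist1h2ae, Hist1h2af, Hist1h2ai, Hist1h2bk and Hist3h2ba were added after their values were seen, as were the split by 3' end, the sum of Hist1h1c and Hist1h1e, and class sums without KO macrophage replicate 1. Replicate numbers follow accession order and pair nothing; p-values measure the spread between pools of mice. Intervals reflect counting error alone, as PCR copies were not marked by molecular identifiers. Alternatives were filters, pseudocounts, scalings, voom weights, robust eBayes, a Ddx3y covariate, only the groups compared, and each library left out.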

Additional observations from a re-analysis of the deposited data

Results flagged for a closer look

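The KO-against-WT change differed between macrophages and microglia for 2 H1 genes, by the test of the difference itself. For Hist1h1c the macrophage minus microglia difference of log2 changes was 1.63 ± 0.23 (limma adjusted p = 8.8e-05), with all 3 KO macrophage libraries above all WT macrophage libraries and overlapping microglia groups. Over 22 alternatives the difference ran from 1.36 to 1.82, with adjusted p from 1.17e-05 to 0.00062. For Hist1h1e it was 1.89 ± 0.24 (limma adjusted p = 3.28e-05), with every KO macrophage library above and every KO microglia library below the WT libraries of the same origin. Its alternatives ran from 1.62 to 2.01, with adjusted p from 6.71e-06 to 0.000362. Hist1h1e overlaps Hist1h2be on the same strand, and the part of that overlap in the difference was not tested.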

How the results depend on the processing

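Counts of called histone genes moved by over 1.5 times under these settings. In KO against WT microglia (5 called), 9 of 53 were called with the filter at 1 (30.0% of all genes) and 2 of 5 with the filter at 50 (49.1%); leaving out 1 library gave 3 to 6, the 3 being without WT replicate 1, KO replicate 2 or KO replicate 3. In KO against WT macrophages (11), 4 of 5 were called with the filter at 50 (38.2% of all genes) and 7 of 21 when only the 2 groups compared were fitted (24.2%); leaving out 1 library gave 7 to 14, the 7 being without KO macrophage replicate 1. In WT macrophages against WT microglia (6), 3 of 5 were called with the filter at 50 (47.5% of all genes), and 5 to 7 with 1 library left out. In KO macrophages against KO microglia (0), leaving out 1 library gave 0 to 2. For the difference of the changes (2), it gave 2 to 3. With 1 library left out, the 2 that remain share the spread of all groups. Counts with 1 library left out are given without the share of all genes called. They therefore do not show whether histone genes moved apart from the background.

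For the named genes, 481 of 537 repeats of a called change kept its call and 56 lost it; 14 of 1123 repeats of an uncalled change gained one, and no call turned its direction. Upper-quartile scaling moved the median of all genes in KO against WT microglia by 0.21 (log2), in WT macrophages against WT microglia by 0.13 and in KO macrophages against KO microglia by -0.14; it ended the call of Hist1h1e in KO microglia, leaving 4 higher and 0 lower there. No paired analysis was possible because the labels give no replicate numbers shared between groups. Depth limits most core histone genes: 38 of 59 were below the filter.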
